A study of Mus musculus with 6 samples.

Results

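A set of 31 named genes was followed in mouse erythroid precursors from samples labelled as mutant, here called Rb-null, or as control. It held the pyruvate dehydrogenase complex, its kinases and phosphatase, tricarboxylic acid cycle enzymes with respiratory complex II, and linked malate and citrate enzymes. The genes were chosen by name from enzyme function, and the probe set with the highest mean intensity stood for each. All 31 had a probe set on the array, out of 18192 genes, and 30 of them were among the 13232 genes bright enough to test. Pdk4 was the exception. Bone marrow cells sorted as CD71+/Ter-119+ were profiled on 6 Affymetrix arrays, 3 labelled as mutant and 3 as control. The mutant animals were EpoR-GFPcre/+; Rb fl/fl and the controls EpoR-GFPcre/+; Rb fl/+. Both groups therefore carried the Cre recombinase, placed at the erythropoietin receptor locus and so active where that receptor is expressed, and both carried at least 1 floxed Rb allele. The labels give no age and do not say that the arrays of a group come from separate animals. The p-values therefore reflect only how far these samples differ among themselves, and that spread may be technical.

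Pyruvate made by glycolysis in the cytosol enters mitochondria and is turned into acetyl-CoA by the pyruvate dehydrogenase complex, which pyruvate dehydrogenase kinases switch off by phosphorylation and phosphatases switch back on. Citrate synthase joins acetyl-CoA to oxaloacetate, and the cycle then oxidises it through isocitrate, 2-oxoglutarate, succinyl-CoA, succinate, fumarate and malate, feeding electrons to the respiratory chain. In erythroid precursors the cycle also supplies the succinyl-CoA from which heme synthesis starts, and mature red cells later lose their mitochondria. The series title names as its question how Rb couples leaving the cell cycle with the making of mitochondria during red cell formation.

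Array medians of the deposited intensities lay between 23.3 and 31.2. Having 3 arrays a group limits the precision. Both arrays numbered 3 stood apart, with 18S ribosomal RNA control signals of 1231 and 542 against 32.6 to 66.2 on the other 4. Arrays sharing a replicate number deviated together from their group means (correlations of 0.636, 0.615 and 0.653 across genes, which are not independent), so each difference is also given within the pairs of equal number. Rb1, the floxed gene, read 2923, 2025 and 1553 in normalised intensity in controls 1, 2 and 3, and 4334, 3277 and 3092 in Rb-null samples 1, 2 and 3. Its signal was thus higher, not lower, in the arrays labelled Rb-null, and since the sources used here do not place the probe set relative to the floxed exon, it does not check the labels. Of 11 erythroid markers 8 had a named probe set and 7 were bright, among them Slc4a1, Alas2 and Tfrc, which encodes CD71, while the Hba-a1 probe set read at most 31.9. The 8 erythroid signals summed to 36351 to 39953 in controls and 38942 to 40662 in Rb-null cells. Their median log2 fold change was 0.04, with 3 of 8 below 0. The highest was that of Klf1, at 0.45. Klf1 read 2496, 3868 and 3739 in controls 1, 2 and 3, and 3702, 4790 and 5243 in Rb-null samples 1, 2 and 3. Summed over 11 granulocyte markers the signal was 36301 to 48212 in controls and 26700 to 48010 in Rb-null cells, and 3 T cell markers all lay below the filter.

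Most of the set was lower in Rb-null cells, without any member passing the test. Of the 30 tested genes 24 had a log2 fold change below 0, against 54.6% of all genes, and 21 were lower in each of the 3 pairs, against 24.1% of all genes. The median log2 fold change was -0.29 over the members and -0.04 over all genes. The members' pair medians were -0.37, -0.27 and -0.32 for pairs 1, 2 and 3. Fold changes ran from -0.79 for Mdh1, a malate dehydrogenase, to 0.37 for Pdp1, the phosphatase that activates pyruvate dehydrogenase. Mdh1 was at -0.28 without Rb-null replicate 3 and at -0.43 with the mean of all its probe sets. In these bulk samples fewer cells of a type and less RNA per cell cannot be told apart.

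No member was called by limma's moderated test at an adjusted p under 0.05, and 0 of the 13232 genes were (0%). The members' adjusted p was 1.00 throughout, and 0 members stood at an unadjusted p under 0.05, against 1.51% of all genes lower and 2.55% higher at that level. With the replicate number as a block limma again called 0 members and 0 genes in all (0%), and the lowest member adjusted p was 0.140, for Sdha. At an unadjusted p under 0.05 the fit with the block held 12 members, all lower, which is 40% of those tested against 9.14% of all genes, and 0 members higher, against 7.77%. They were Dlat, Cs, Idh3b, Idh3g, Ogdh, Suclg1, Sucla2, Sdha, Sdhb, Fh1, Mdh1 and Mdh2. At an adjusted p under 0.1 it held 0 members, while 0.242% of all genes were lower and 0.846% higher. A fit with the block, a variance trend and robust moderation called 1 member, Sdha (limma adjusted p = 0.0463), where 1.39% of all genes were called lower and 2.18% higher. The difference between these fits lay in the error and not in the fold changes, since the median SE of the members was 0.31 without the block and 0.16 with it.

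**Figure D1:**
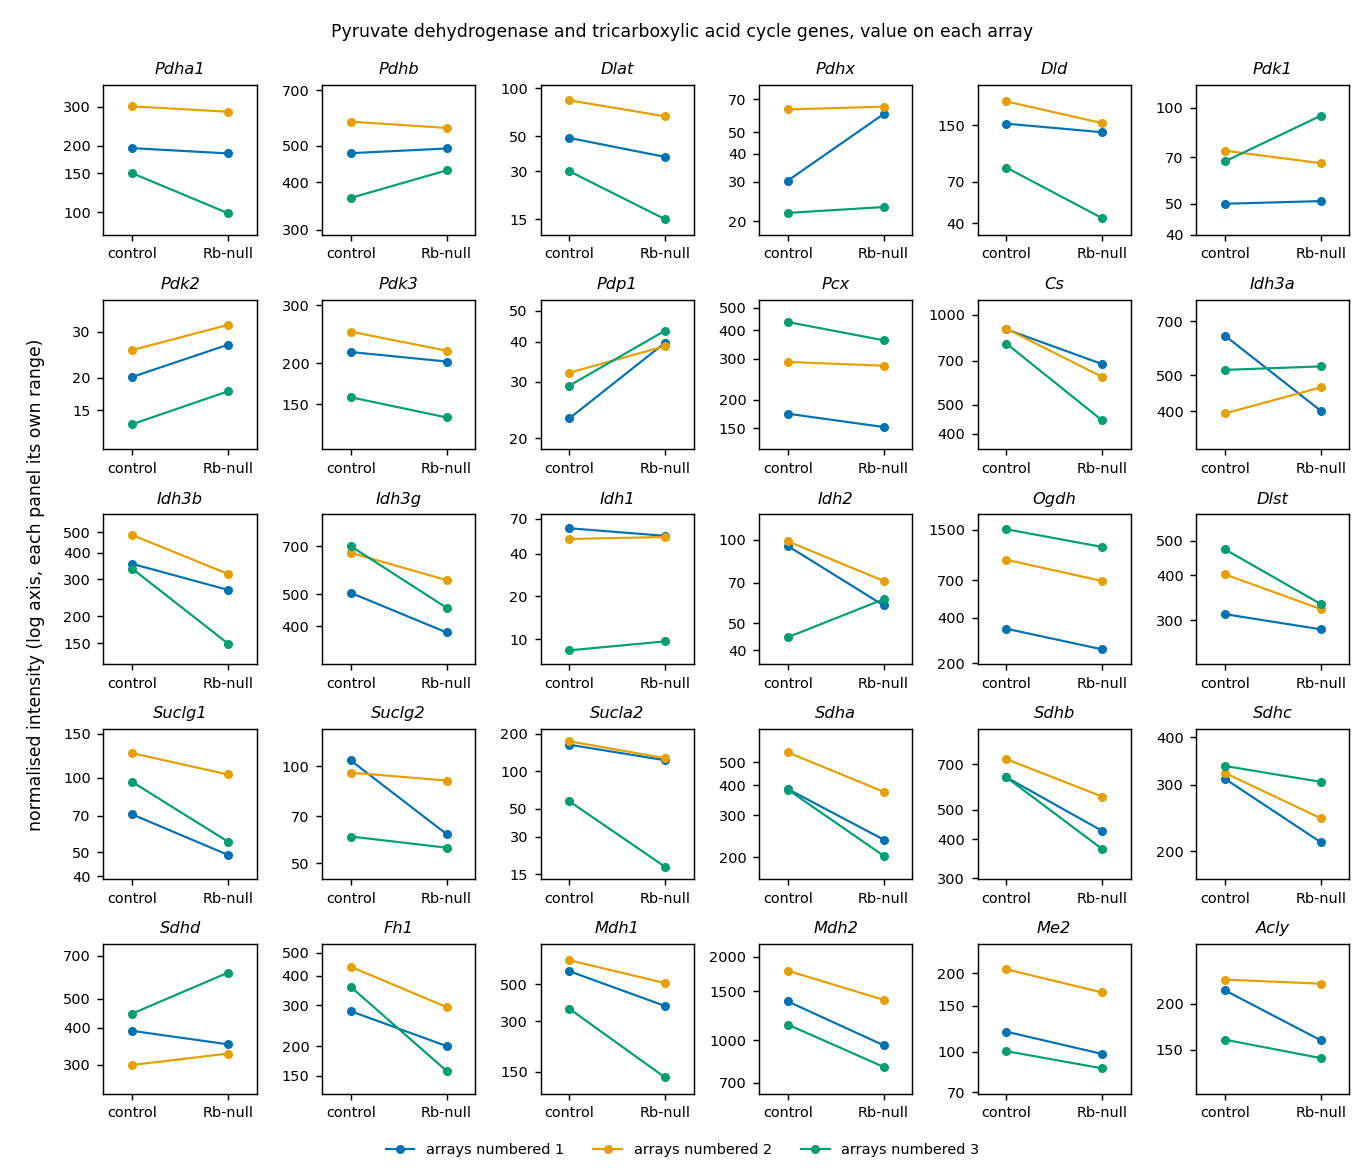
Normalised intensity (log axis, arbitrary array units, each panel with its own range) of the 30 tested members in control and Rb-null cells, 1 point per array, with a line joining the arrays of equal replicate number. Lines slope down in all 3 pairs for 21 genes, and for Cs, Idh3b, Sdha, Sdhb and Sdhc every Rb-null point lies below every control point.

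The values per array are normalised intensities, that is, quantile-normalised log2(value + 16) turned back to the linear scale, and fold changes and SE are on that log2 scale. The offset of 16 understates the change of dim genes. SE given for further probe sets of a member come from a separate fit over all 45032 probe sets. They are not strictly comparable with the SE of the main fit. The Sdha probe set used had an SE of 0.298 there and 0.314 in the main fit. For 5 members every Rb-null array lay below every control array, where 4.78% of all genes did so, and for 1 member, Pdp1, every Rb-null array lay above, where 5.13% of all genes did so. The 5 were citrate synthase, the beta subunit of the NAD-dependent isocitrate dehydrogenase, and 3 of the 4 subunits of complex II.

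Complex II, succinate dehydrogenase, oxidises succinate to fumarate and passes the electrons to ubiquinone. It is both an enzyme of the cycle and part of the respiratory chain. Sdha, the flavoprotein subunit that binds succinate, read 386, 550.0 and 384 in controls 1, 2 and 3, and 237, 376 and 203 in Rb-null samples 1, 2 and 3. The control mean was 440.1 ± 95.1 (SD, n = 3) and the Rb-null mean 272 ± 91.8 (SD, n = 3). This is a log2 fold change of -0.69 (SE 0.31), and the groups did not overlap. The other Sdha probe sets past the filter gave -0.80 (SE 0.49) and -0.13 (SE 0.24), both with overlapping groups. The last of these was higher in pair 2, at 0.04. With the mean of all its probe sets past the filter Sdha was at -0.54. Sdhb, the iron-sulfur subunit, read 636, 729 and 636 in the controls and 426, 551 and 373 in the Rb-null cells, for a log2 fold change of -0.57 (SE 0.26). Its highest Rb-null array lay below its lowest control array. Sdhc, a membrane anchor, read 311, 322 and 336 against 211, 244 and 305, a log2 fold change of -0.34 (SE 0.26). Its controls were close together, and the highest Rb-null array stood just under them. Sdhd, the other anchor, went the other way in 2 of its pairs, with 389.8, 299 and 446 in the controls and 351, 327 and 613 in the Rb-null cells and a log2 fold change of 0.14 (SE 0.32). The groups overlapped, and the pair differences of Sdhd were -0.15, 0.12 and 0.45. A second Sdhd probe set had -0.26 (SE 0.52), so its probe sets disagree in sign. The sign of Sdhd also turned with the mean of both probe sets (-0.059), without Rb-null replicate 3 (-0.14), without control replicate 2 (-0.011) and without both arrays numbered 3 (-0.013). The second Sdhc probe set, at -0.70 (SE 0.27), was lower without overlap as well.

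The start regions of the complex II genes are shown because these subunits form 1 complex and 3 of the 4 were lower without overlap. That of Cs is shown as an example of the other genes lower without overlap. Idh3b was lower without overlap as well, but its start region is not printed. The RefSeq table of promoters (GRCm38.p6) held 27 of the 31 members, without Pdp1, Idh3a, Sdhc and Me2. The 250 bases before the annotated start are printed 5′ to 3′ on the strand of the gene, with capitals at matches to 4 motifs searched on both strands: GCGCA followed by any base and GCGC for NRF1, a factor of respiratory genes, CCGGAAG for ETS factors such as GABP, AAGGTCA for ERR factors and GGCGGGA for E2F, the factors that Rb binds.
Sdha (chr13:74350241-74350490, minus strand): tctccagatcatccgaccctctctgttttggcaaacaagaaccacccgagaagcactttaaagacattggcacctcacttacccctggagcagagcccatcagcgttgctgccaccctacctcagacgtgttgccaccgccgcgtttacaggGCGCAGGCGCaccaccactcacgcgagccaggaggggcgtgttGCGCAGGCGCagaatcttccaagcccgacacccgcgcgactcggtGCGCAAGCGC
Sdhb (chr4:140961021-140961270, plus strand): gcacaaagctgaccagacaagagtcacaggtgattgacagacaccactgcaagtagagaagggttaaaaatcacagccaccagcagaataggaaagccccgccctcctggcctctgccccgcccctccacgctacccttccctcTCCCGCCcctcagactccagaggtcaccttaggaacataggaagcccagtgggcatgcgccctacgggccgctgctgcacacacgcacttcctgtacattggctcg
Sdhd (chr9:50603850-50604099, minus strand): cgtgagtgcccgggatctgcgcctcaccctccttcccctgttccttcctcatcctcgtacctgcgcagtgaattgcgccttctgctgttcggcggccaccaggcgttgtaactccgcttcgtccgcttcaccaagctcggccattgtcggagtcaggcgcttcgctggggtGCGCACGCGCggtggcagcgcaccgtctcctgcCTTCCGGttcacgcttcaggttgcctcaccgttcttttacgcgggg
Cs (chr10:128337477-128337726, plus strand): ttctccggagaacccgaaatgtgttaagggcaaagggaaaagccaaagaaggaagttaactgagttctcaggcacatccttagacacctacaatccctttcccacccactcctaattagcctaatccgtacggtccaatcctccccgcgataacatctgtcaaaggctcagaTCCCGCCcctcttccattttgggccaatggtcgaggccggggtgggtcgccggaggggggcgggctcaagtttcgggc

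Sdha held 3 NRF1 matches in these bases, beginning 98, 55 and 10 bases before the start, and none of the other 3 motifs. Sdhb held an E2F match in them, 106 bases before the start, and an ETS match 6 bases after it, and Cs an E2F match 78 bases before. Sdhd held an NRF1 and an ETS match in the printed bases, an E2F match across the start and an ERR match after it. Idh3b, which is not printed, held an ETS match beginning 5 bases before the start. Over the window of 300 bases, which adds 50 after the start, the NRF1 motif lay at any listed start of 4 of the 27 members with an entry (14.8%), namely Dld, Sucla2, Sdha and Sdhd, and of 5.19% of all 27025 genes. The ETS motif lay in 5 of 27 members (18.5%) and in 9.93% of genes. For the E2F motif these were 8 members (29.6%) and 12.75% of genes, and for the ERR motif 2 members (7.41%) and 5.38%. Among 33 complex I genes the shares were 21.2% for NRF1, 12.1% for ETS, 18.2% for E2F and 9.09% for ERR. The NRF1 and ERR shares were thus higher in complex I than in the members. Counted over all 32851 single promoters, the shares were 4.60% for NRF1, 8.86% for ETS, 11.3% for E2F and 4.72% for ERR. Members' promoters were richer in G and C, with a median of 62% over the members' first listed starts and 52.7% over all promoters. A match is a description of letters in this window, not a binding site.

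**Figure D2:**
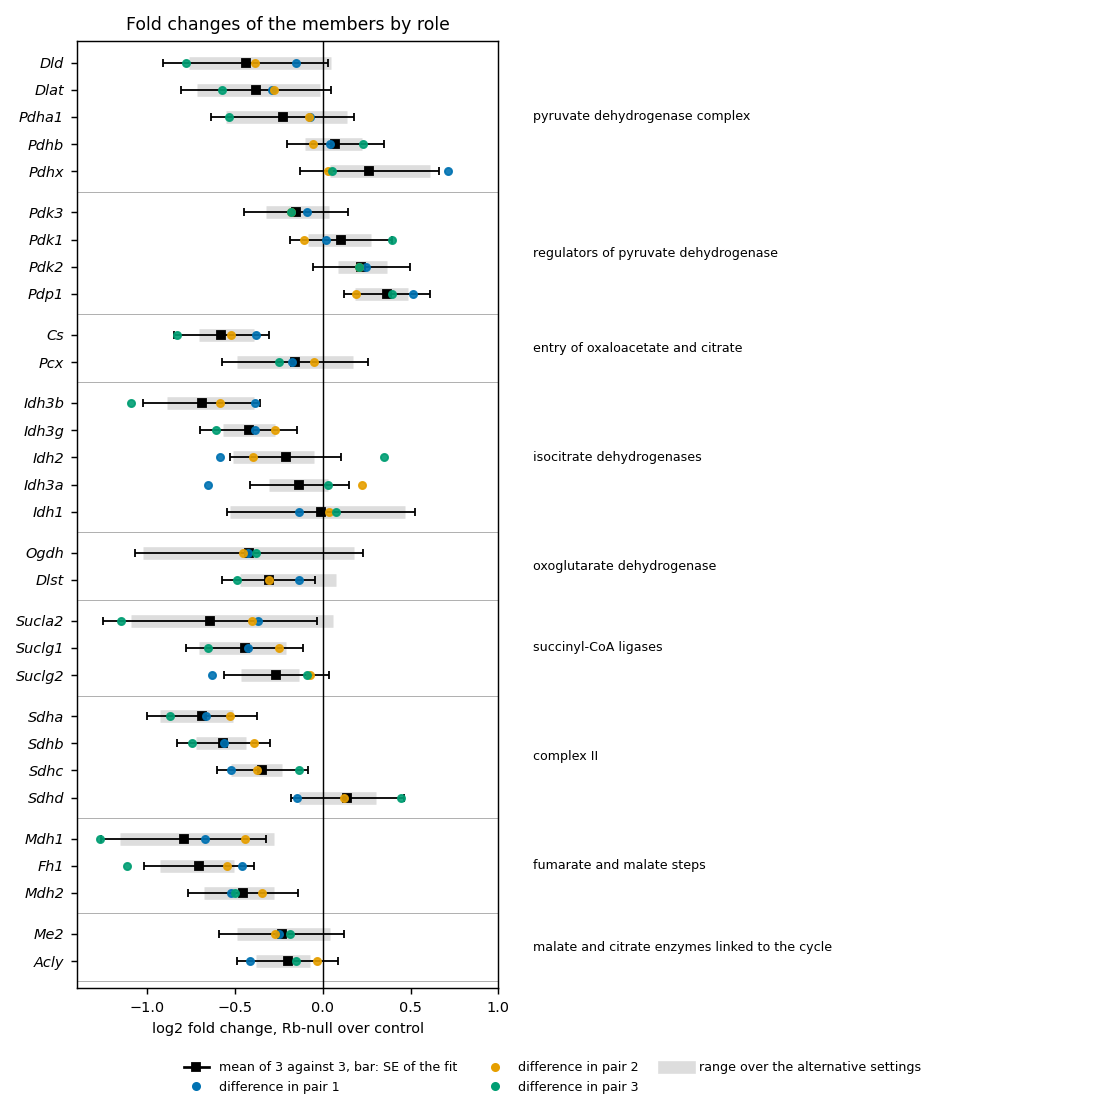
Log2 fold change (Rb-null over control) of the 30 tested members grouped by role, with squares for the mean of 3 against 3 arrays, black bars for the SE of the fit without the block, coloured points for the difference within each pair of equal number, and grey bars for the range over the 18 alternative settings. The lowest means are those of Mdh1, Fh1, Sdha and Idh3b, and Pdp1, Pdhx and Pdk2 lie above 0 in all pairs.

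Fumarate made by complex II is hydrated to malate and oxidised to oxaloacetate, and all 3 genes of these steps were lower in every pair. Fh1, fumarase, read 283, 437 and 359 in controls 1, 2 and 3 and 201, 294 and 157 in the Rb-null cells. The log2 fold change was -0.71 (SE 0.31), and the groups overlapped only through Rb-null array 2, which lay above control array 1. Mdh1, the cytosolic malate dehydrogenase of the malate-aspartate shuttle, read 598, 695 and 357 against 370.3, 507 and 139, a log2 fold change of -0.79 (SE 0.47). Both arrays numbered 3 were its lowest in their groups, and the difference was largest between them, at -0.67, -0.44 and -1.27 in pairs 1, 2 and 3. Mdh2, the mitochondrial enzyme that closes the cycle, read 1379.7, 1782 and 1138 against 957, 1398 and 799, a log2 fold change of -0.46 (SE 0.31). Its pair differences of -0.52, -0.35 and -0.50 were close together, although control arrays alone ranged from 1138 to 1782. Without Rb-null replicate 3 Mdh2 was at -0.28, and without control replicate 2 at -0.29. The second Mdh2 probe set gave -0.39 (SE 0.32). The other 3 Mdh1 probe sets past the filter gave -0.82, -0.24 and 0.12, the last with the opposite sign.

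At the entrance to the cycle, Cs, citrate synthase, read 893, 897 and 800.4 in controls and 683, 619 and 443 in Rb-null cells. The control mean was 864 ± 54.7 (SD, n = 3) and the Rb-null mean 582 ± 124 (SD, n = 3). On the log2 scale the fold change was -0.58 (SE 0.27), and every Rb-null array lay below every control array. All 3 Cs probe sets had the same sign, the others at -0.54 (SE 0.34) and -0.37 (SE 0.27), and were lower in each pair. Pcx, the pyruvate carboxylase that refills oxaloacetate, differed far more between replicate numbers than between groups, with 174, 291 and 433 in the controls and 152, 280.2 and 361 in the Rb-null cells. Its log2 fold change was -0.16 (SE 0.41).

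Isocitrate is oxidised by the NAD-dependent enzyme Idh3, built from alpha, beta and gamma subunits, and by the NADP-dependent enzymes Idh1 in the cytosol and Idh2 in mitochondria. Idh3b read 354, 484 and 336 in the controls and 267, 317 and 149 in the Rb-null cells, for a log2 fold change of -0.69 (SE 0.33) with no overlap between groups. Rb-null array 3 was the lowest of the 6, and without it the value was -0.39. Without both arrays numbered 3 the Idh3b value was -0.49. The second Idh3b probe set gave -0.81 (SE 0.54). Idh3g, the gamma subunit, read 505, 669.7 and 702 against 382, 553 and 455, with -0.42 (SE 0.28), and its second probe set gave -0.41 (SE 0.30). Idh3a, the catalytic alpha subunit, had -0.13 (SE 0.28) with pair differences of -0.65, 0.22 and 0.03, so that only pair 1 was clearly lower, and the remaining Idh3a probe sets above the filter had -0.34 and 0.16. Idh1 was split by replicate number, with 60.2, 50.6 and 8.37 in the controls and 53.2, 52.3 and 9.67 in the Rb-null cells. Both of its arrays numbered 3 read under 10 while the other 4 read over 50, and the fold change between genotypes was -0.01 (SE 0.53). Idh2 read 94.9, 98.6 and 44.5 against 58.0, 71.0 and 61.0, lower in pairs 1 and 2 and higher in pair 3, with -0.21 (SE 0.32).

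The 2-oxoglutarate dehydrogenase complex, built like pyruvate dehydrogenase and sharing its Dld subunit, turns 2-oxoglutarate into succinyl-CoA. Ogdh, its first enzyme, read 338, 955 and 1514 in controls 1, 2 and 3 and 248, 694 and 1159 in Rb-null cells. The control arrays thus spanned a range wider than any difference between groups, yet the Rb-null array was lower in each pair by nearly the same amount, -0.42, -0.45 and -0.38. Its SE was 0.65 without the block and 0.14 with it, around a log2 fold change of -0.42. That value was 0.038 without control replicate 3, 0.18 without Rb-null replicate 1 and 0.059 with the mean level of granulocyte markers as a covariate. Without both arrays numbered 3 it was -0.43. A dimmer Ogdh probe set went the other way, at 0.35 (SE 0.32). Dlst, the succinyltransferase core, read 312, 403 and 473 against 283, 323 and 333, with -0.31 (SE 0.27). It was lower in each pair, but the remaining Dlst probe sets above the filter were higher in each pair, at 0.33 (SE 0.47) and 0.20 (SE 0.46).

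Succinyl-CoA ligase then makes succinate and a nucleoside triphosphate, with Suclg1 as the common alpha subunit, Sucla2 as the beta subunit for ATP and Suclg2 as that for GTP. All 3 were lower in every pair. Suclg1 read 71.0, 125 and 96.0 against 48.7, 103 and 55.1, with -0.44 (SE 0.33). Sucla2 read 163, 174 and 57.6 against 123, 128 and 17.2, with -0.64 (SE 0.61), and Rb-null array 3 stood far below the other 5. Without that array the value was 0.056, and without both arrays numbered 3 it was -0.39. The Sucla2 pair differences were -0.37, -0.40 and -1.15 in pairs 1, 2 and 3. Its next probe set gave 0.05 (SE 0.37). Suclg2 read 104, 95.5 and 60.5 against 61.6, 90.3 and 55.9, with -0.26 (SE 0.30), and most of its difference lay in pair 1, at -0.63, -0.07 and -0.09 in pairs 1, 2 and 3.

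Within the pyruvate dehydrogenase complex 3 of 5 genes were below 0, with a median of -0.23. Dld, the lipoamide dehydrogenase shared with the 2-oxoglutarate complex, read 154, 208 and 84.9 against 137, 155 and 42.8, with -0.44 (SE 0.47), and Dlat, the acetyltransferase core, read 48.7, 84.0 and 30.1 against 37.0, 66.6 and 15.0, with -0.38 (SE 0.43). Both were lower in each pair, and all 3 Dlat probe sets had that sign. Without Rb-null replicate 3 Dlat was at -0.014 and Dld at 0.048, and without control replicate 2 they were at -0.088 and -0.18. Without both arrays numbered 3, which parts no pair, they were at -0.29 and -0.27. The alpha and beta subunits of the decarboxylase, Pdha1 and Pdhb, had -0.23 (SE 0.41) and 0.07 (SE 0.28). Pdha1 read 195, 302 and 150.4 against 185, 285 and 99.1, with array 3 lowest in both groups. The second Pdha1 probe set had the opposite sign, at 0.04 (SE 0.27). Pdhb, at 478, 578 and 364 against 491, 557 and 430.2, differed between groups by less than its controls differed among themselves. Pdhx, which anchors Dld to the core, read 30.4, 63.1 and 21.8 against 60.1, 64.9 and 23.2, with 0.27 (SE 0.39). Its difference came mainly from pair 1, at 0.72, 0.03 and 0.05 in pairs 1, 2 and 3.

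Of the 4 tested regulators of the complex 3 lay above 0, with a median of 0.16 over the 4. Pdp1 read 23.0, 32.0 and 29.2 in controls and 39.8, 38.8 and 43.4 in Rb-null cells, with no overlap and a log2 fold change of 0.37 (SE 0.25). These are dim signals, not far above the filter value of 18.9, and a second Pdp1 probe set below the filter gave 0.07 (SE 0.25). Among the kinases, Pdk2 read 20.1, 25.5 and 13.2 against 26.8, 31.9 and 17.7, higher in each pair by nearly the same amount (0.24, 0.21 and 0.21), with 0.22 (SE 0.28). Pdk1, a kinase induced by hypoxia, read 49.99, 73.4 and 67.9 against 51.0, 67.0 and 94.4, with 0.10 (SE 0.29). Only pair 3 differed clearly, and the remaining Pdk1 probe sets above the filter had -0.19 and -0.02. Pdk3 read 216, 249 and 158 against 202, 218 and 137, lower in each pair, with -0.15 (SE 0.30). Pdk4, the kinase induced by fasting, read 6.75, 6.16 and 5.09 in the controls and 7.64, 7.06 and 3.26 in the Rb-null cells, below the filter on every array, so it was not tested.

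Of the linked enzymes that use malate or citrate, Me2, the mitochondrial NAD-dependent malic enzyme, read 119, 207 and 100.5 against 98.1, 169 and 86.4, with -0.23 (SE 0.35) and pair differences of -0.25, -0.27 and -0.19. Acly, which splits citrate in the cytosol into acetyl-CoA and oxaloacetate, read 218, 233 and 159.8 against 159, 227 and 142, with -0.20 (SE 0.29). Both were lower in each pair and overlapped between groups. A second Me2 probe set past the filter gave 0.09 (SE 0.30). The other Acly probe sets past the filter gave -0.35 (SE 0.75) and 0.15 (SE 0.26), so the probe sets of both genes differ in sign.

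How far a value depends on the probe set was checked where a member had more than 1 probe set past the filter. Of the 30 tested members 19 did, and in 10 of these the probe sets differed in sign. The other 11 had 1 probe set past the filter and could not be checked this way. Agreement in sign over all probe sets past the filter held for Dlat, Cs, Idh3b, Idh3g, Idh1, Idh2, Sdha, Sdhc and Mdh2. With the mean of all probe sets past the filter in place of the brightest, 25 of 30 members were below 0 and the members' median was -0.17.

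**Figure D3:**
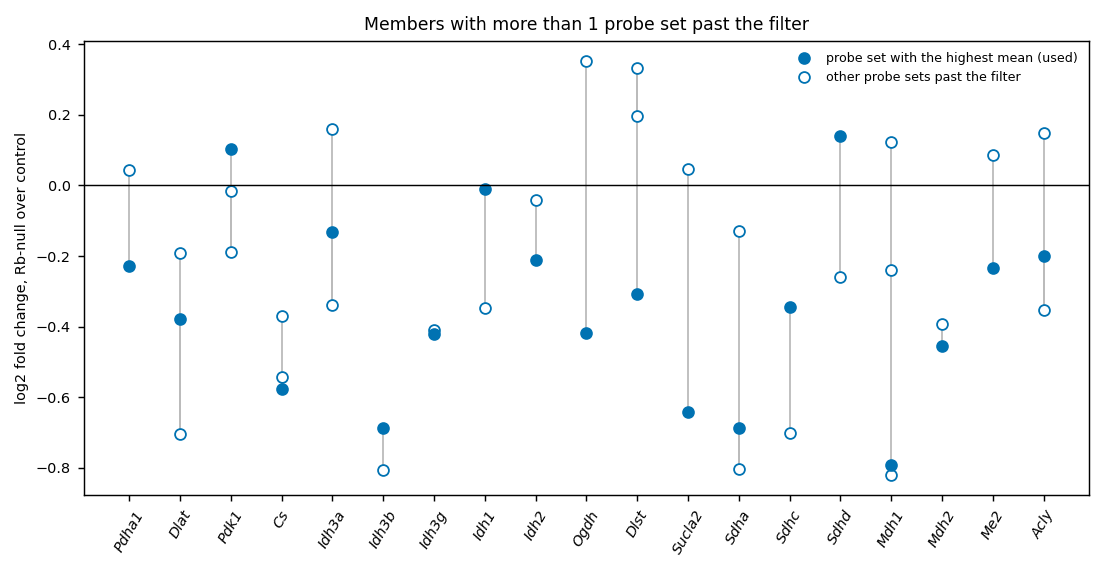
Log2 fold change (Rb-null over control) of each probe set past the filter for the 19 members with more than 1, filled points for the probe set with the highest mean and open points for the others, fitted over all 45032 probe sets. The points of Cs, Idh3b, Idh3g, Sdhc and Mdh2 all lie clearly below 0, while those of Ogdh, Dlst, Sucla2 and Mdh1 spread across 0.

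The members' median was not steady in size when single arrays were left out, although it stayed below 0. It was -0.17 without Rb-null replicate 3, -0.18 without control replicate 2, -0.44 without control replicate 3 and -0.46 without Rb-null replicate 2. Without both arrays numbered 3 it was -0.28, and 27 of 30 members were below 0. Granulocyte markers were lower too, with 10 of 11 below 0, a list median of -0.39 on the log2 scale and pair medians of -0.53, 0.00 and -0.60. The members' pair medians were -0.37, -0.27 and -0.32. With the mean granulocyte level as a covariate the members' median was nearer 0, at -0.20, with 22 of 30 below 0, and Ogdh (0.059) and Pcx (0.10) were above 0. The part of granulocyte RNA in the members' differences was not tested beyond this fit. The actin 3' to 5' signal ratio, a sign of RNA quality, was 1.67, 1.15 and 1.18 on the control arrays and 1.43, 1.10 and 1.01 on the Rb-null arrays. The Gapdh 3' to 5' ratio was 1.16, 1.34 and 0.948 against 1.17, 1.38 and 0.737, lower in Rb-null cells in pair 3 only. The part of RNA quality in the members' differences was not tested. Macrophage markers had a median of -0.33 (6 of 7 lower), and their summed intensity was 1104 to 2288 in controls and 1025 to 1445 in Rb-null cells. B cell markers had a median of -0.59 (4 of 5 lower), with sums of 300.1 to 717 and 162 to 381. The part of either in the members' differences was not tested.

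Genes that work beside the cycle had a median near that of all genes. Of 33 listed carriers, lipoylation and assembly factors, aconitases and entry enzymes 29 were on the array and 25 were tested, with a median log2 fold change of -0.05 and 14 below 0. Lower in each pair were 6 of them and higher in each pair 5, against 24.1% and 18.4% of all genes. Without overlap 2 of the 25 were lower (8%) and 1 was higher, against 4.78% and 5.13% of all genes. Limma called 0 (0% of all genes). At an unadjusted p under 0.05 stood 1 linked gene, against 1.51% of all genes lower and 2.55% higher. That gene was Acss1, the mitochondrial enzyme that activates acetate to acetyl-CoA, at 299.8, 334 and 246 in controls and 159, 217 and 135 in Rb-null cells. Its log2 fold change was -0.75 (SE 0.28) with no overlap. Acss1 was called in the fit with the block, trend and robust moderation (limma adjusted p = 0.0431). That fit called 1.39% of all genes lower and 2.18% higher. Lias, which makes the lipoyl groups of Dlat and Dlst, had -0.38 (SE 0.25) and was lower without overlap, and Slc25a10, the dicarboxylate carrier, had 0.31 (SE 0.24) and was higher without overlap. Slc25a1, the citrate carrier, had -0.70 (SE 0.38), and Ldha, a lactate dehydrogenase subunit, -0.58 (SE 0.51), both lower in each pair. Aco1, the cytosolic aconitase that also senses iron, had -0.82 (SE 0.66), and Mpc1, a subunit of the mitochondrial pyruvate carrier, had -0.29 (SE 0.42). Higher values included Pdpr, a regulatory subunit of the pyruvate dehydrogenase phosphatase, at 0.62 (SE 0.48), and the aspartate-glutamate carrier Slc25a12 at 0.38 (SE 0.31). Lias, Slc25a10, Slc25a1, Ldha, Aco1, Mpc1, Pdpr and Slc25a12 were picked as examples after their values were seen.

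Set beside 2 neighbouring lists, the cycle lay between all genes and complex I, the NADH dehydrogenase that takes up the electrons of its NADH. All 33 tested complex I subunits were below 0, with a median of -0.64, 31 of them lower in each pair and 10 without overlap. Fatty acid oxidation genes, which supply acetyl-CoA from lipids, had a median of -0.38 over 19, with 15 below 0 and 10 lower in each pair. Only 1 of them (5.26%) was lower without overlap, near the share of all genes. The members' own counts were 24 of 30 below 0, 21 lower in each pair and 5 lower without overlap. Of all genes 54.6% were below 0, 24.1% lower in each pair and 4.78% lower without overlap. All these values come from the same 6 arrays, and no test of a difference between the lists was made.

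**Figure D4:**
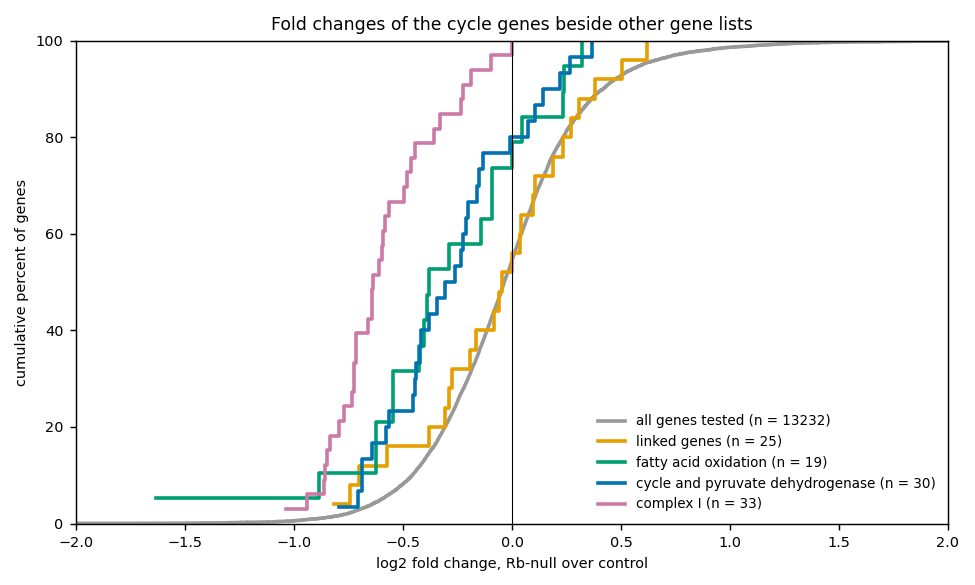
Cumulative percent of genes against log2 fold change (Rb-null over control) for the 30 tested members, 33 complex I subunits, 19 fatty acid oxidation genes, 25 linked genes and all 13232 genes tested. The curve of the members crosses 0 at 80%, that of complex I lies farther left, and that of the linked genes runs near all genes, which cross 0 at 54.6%.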

How the data were processed

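Total RNA of 6 samples (Trizol, then QIAGEN columns) was biotin labelled, per the labels. For each probe set the deposited table holds a linear intensity. The sources used here do not give how the authors summarised or scaled the scans. Control probe sets (64), empty ones (4) and 1 above the 16-bit range were left out of 45101. Gene symbols came from the platform annotation, updated through RefSeq (34941 probe sets with 1 gene, 932 with several, 9159 with none). Values were taken as log2(value + 16) and quantile normalised. A probe set was kept if its mean exceeded the 40th percentile (log2 5.12), and the probe set with the highest mean stood for each gene.

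Groups and replicate numbers came from the sample titles. Rb-null was compared with control by limma 3.58.1 in R 4.3.3, 2-sided, with Benjamini-Hochberg adjustment over 13232 genes and a threshold of 0.05. An exact permutation test of 3 against 3 cannot go below p = 0.1, so none was run. The pairing was judged from correlations of deviations within each number, the highest between different numbers being 0.0370 over all genes. For each gene the 3 deviations of a group sum to 0. High correlations within numbers therefore push those between numbers down, and the latter are no independent contrast. Every member was described, and of the linked genes those with an unadjusted p under 0.05 were named by rule. The members, lists, settings and tests were chosen with earlier results of these data known.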

Additional observations from a re-analysis of the deposited data

How the results depend on the processing

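Over 18 alternative settings the members' median log2 fold change stayed below 0, at -0.19 with an offset of 64, -0.34 with a filter at the 60th percentile, -0.17 with the mean of all probe sets, -0.20 with the granulocyte covariate, and -0.46 to -0.17 when 1 array was left out. Limma called 2 genes with an offset of 64, 3 with array weights, and 473 with the replicate block, variance trend and robust moderation (1 of them a member), and 0 under the other 15, including the replicate block alone and each array left out. At an unadjusted p under 0.05 the replicate block held 12 members, all lower, where the fit without it held 0, and it changed no call. Of 30 members 17 kept their sign under every setting, 14 of them lower (Dlat, Cs, Idh3b, Idh3g, Idh2, Suclg1, Suclg2, Sdha, Sdhb, Sdhc, Fh1, Mdh1, Mdh2 and Acly) and 3 higher (Pdhx, Pdk2 and Pdp1), though Dlat was at -0.014 without Rb-null replicate 3. Signs turned with the mean of all probe sets for Pdk1 (-0.033), Dlst (0.074) and Sdhd (-0.059), without both arrays numbered 3 for Pdhb (-0.0065), Pdk1 (-0.043) and Sdhd (-0.013), with the granulocyte covariate for Pcx (0.10) and Ogdh (0.059), with array weights for Pdk1 (-0.016) and with an offset of 4 for Idh1 (0.0074). Leaving out 1 array, most often Rb-null replicate 3 (7 of the 12 genes), turned the sign of Pdha1 (-0.55 to 0.14), Pdhb (-0.10 to 0.22), Dld (-0.76 to 0.048), Pdk1 (-0.086 to 0.28), Pdk3 (-0.32 to 0.039), Pcx (-0.49 to 0.17), Idh3a (-0.31 to 0.030), Idh1 (-0.53 to 0.47), Ogdh (-1.02 to 0.18), Sucla2 (-1.09 to 0.056), Sdhd (-0.14 to 0.30) and Me2 (-0.49 to 0.040). The cause of these changes was not tested. Leaving out 1 array also parts a pair. For the 11 members with 1 probe set past the filter, the mean of all probe sets repeats the main value. That setting could not turn their sign. The fits with the replicate block, the lack of a filter and the filter at the 60th percentile left each member's fold change at its main value where tested. These settings could not turn a sign either, so the count of kept signs rests on the remaining ones. Dim signals limit Pdk2, Pdp1 and Idh1, which the filter at the 60th percentile left untested.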

Other observations

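The difference between groups was most negative in pair 3 for 16 of the 30 members, in pair 1 for 8 and in pair 2 for 6. Over all genes tested pair 3 was the most negative for 40.8%. Pair 3 differences beyond -1 on the log2 scale were seen in 4 members, Idh3b, Sucla2, Fh1 and Mdh1, and no pair 1 or pair 2 difference of a member reached that size. Within the members alone the deviations of arrays sharing a number correlated at 0.793, 0.813 and 0.874 across genes, which share their libraries. Between different numbers these correlations were 0.389 (control 2 with Rb-null 1), 0.142 (control 1 with Rb-null 2), and -0.862 to -0.573 for the pairs that involve an array numbered 3. They are not independent of those within numbers, since the deviations of a group sum to 0 for each gene.

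The CCAAT box lay in the start region of 18 of 27 members (66.7%) and of 41.1% of all genes with an entry (37.4% of single promoters), and in 10 of 33 complex I genes (30.3%). The letters AAGATGG of YY1 lay in 1 of 27 members, Idh3g, and in 7 of 33 complex I genes, against 7.28% of all genes (6.34% of single promoters). These are matches of letters on either strand, counted over windows of 300 bases, and carry no test.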
